A study of Mus musculus with 15 samples.

Results

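A set of 9 genes that mark macrophages or take part in inflammation was followed across the 6 deposited lists of histone mark peaks, out of 21938 protein-coding genes on chromosomes 1 to 19, X and Y. The 9 genes were Ptprc, Adgre1, Cd68, Itgam, Ccl2, Cxcl10, Il1b, Tnf and Nfkbia, and they were chosen by name. A peak was assigned to a promoter if it overlapped the annotated start site within 1 kb on either side, and to a gene window if it overlapped the gene body or 20 kb on either side. The study mapped 2 marks by chromatin immunoprecipitation and sequencing (ChIP-seq) in pooled, hand-picked pancreatic islets of adult CBA mice. H3K27Ac is the acetylated form of a lysine in the tail of histone H3 and is carried by promoters and enhancers in use. H3K27Me3 is the trimethylated form of that lysine and is laid down by Polycomb at silenced genes. The mice received a regular diet (RD), a high-fat diet (HFD), or the high-fat diet with O304, an activator of the energy sensor AMPK (HFD-O304), and each mark was read in 2 replicates per diet. The replicates of a mark and diet were merged before peaks were called, so each of the 6 groups is 1 list with no spread between replicates, and no difference between diets could be tested. All values below are descriptions of these lists.

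Islets hold resident macrophages beside a majority of beta cells and other endocrine cells. Ptprc (CD45) is the surface phosphatase of all leukocytes, Adgre1 (F4/80) and Itgam (CD11b) are the adhesion receptors used to recognise mouse macrophages and other myeloid cells, and Cd68 is a lysosomal glycoprotein of phagocytes. Ccl2 draws monocytes into tissue, Cxcl10 draws activated T cells, and Il1b and Tnf encode the cytokines that start the NF-κB response. Nfkbia encodes IκBα, the inhibitor that holds NF-κB in the cytoplasm and is itself switched on by NF-κB, which closes a feedback loop found in most cell types. In whole islets, fewer cells of a type and less of a mark per cell cannot be told apart.

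The promoters of Nfkbia and Cxcl10 are shown because both are known NF-κB targets, and peaks were called at the former and not at the latter. Each run is the 250 bases before the RefSeq start on the strand of the gene in GRCm38, a C57BL/6J reference, and capitals mark matches to the NF-κB consensus (κB motif) on either strand. Nfkbia lies at chr12:55492648-55492897 on the minus strand and Cxcl10 at chr5:92348890-92349139 on the minus strand.
Nfkbia: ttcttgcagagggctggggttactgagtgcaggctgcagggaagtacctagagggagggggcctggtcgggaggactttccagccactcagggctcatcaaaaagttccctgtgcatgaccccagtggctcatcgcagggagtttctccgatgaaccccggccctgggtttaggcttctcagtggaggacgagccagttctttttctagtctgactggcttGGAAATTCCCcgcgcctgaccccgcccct
Cxcl10: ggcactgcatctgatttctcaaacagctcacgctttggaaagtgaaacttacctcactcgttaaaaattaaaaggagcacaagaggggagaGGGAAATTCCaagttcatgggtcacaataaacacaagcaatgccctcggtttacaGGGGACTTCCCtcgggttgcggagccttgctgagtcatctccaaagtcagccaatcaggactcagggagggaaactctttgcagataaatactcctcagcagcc
The Nfkbia match begins 29 bases before the start. Cxcl10 held 3 matches, which begin 159, 104 and 103 bases before the start, and the last of these overlap. The κB motif was found in 8.46% of all 32851 RefSeq promoters of 300 bases (250 before and 50 after the start). RefSeq promoters were matched for 7 of the 9 genes, all but Adgre1 and Ccl2.

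Of the 9 genes, 1 had an H3K27Ac peak at its promoter, Nfkbia, and it had this peak in all 3 diets. Over all protein-coding genes, 44.1% had an H3K27Ac promoter peak on RD, 49.9% on HFD and 49.4% on HFD-O304. No member had an H3K27Me3 promoter peak in any diet, where 6.63% of all genes had such a peak on RD, 8.46% on HFD and 8.88% on HFD-O304. The other 8 members thus had a promoter free of called peaks of either mark in every list, a state shared with 41.0% of all genes. The pattern of Nfkbia, H3K27Ac in all 3 diets and no H3K27Me3, was shared with 40.6% of all genes.

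The absence of a peak has a lower limit. Levels are given as the mean pileup of a peak, in fragments per base, divided by the uniform background of its list, which is the number of fragments that would cover each base if all were spread evenly. The background was 12.1 fragments per base for H3K27Ac on RD, 13.7 on HFD and 12.2 on HFD-O304, and 8.77, 6.46 and 6.74 for H3K27Me3. The lowest level of any called H3K27Ac peak was 2.40 times background on RD, 2.26 on HFD and 2.37 on HFD-O304. For H3K27Me3 it was 2.74, 3.10 and 2.97. Enrichment below these values at the 8 promoters was not detectable in these lists.

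The distance from each start site to the nearest peak was measured for both marks. By median, the members lay farther than all genes in every list except that of H3K27Me3 on HFD-O304. The median distance of the 9 start sites to the nearest H3K27Ac peak was 73.3 kb on RD, 73.3 kb on HFD and 73.2 kb on HFD-O304. The medians over all genes were 8.0, 1.1 and 1.5 kb. For H3K27Me3 the member medians were 107.8, 105.6 and 45.9 kb, beside 75.3, 73.5 and 57.5 kb over all genes. The start sites of Nfkbia, Cd68 and Tnf were the only members with an H3K27Ac peak within 10 kb, and Tnf was the only member with an H3K27Me3 peak that near.

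**Figure D1:**
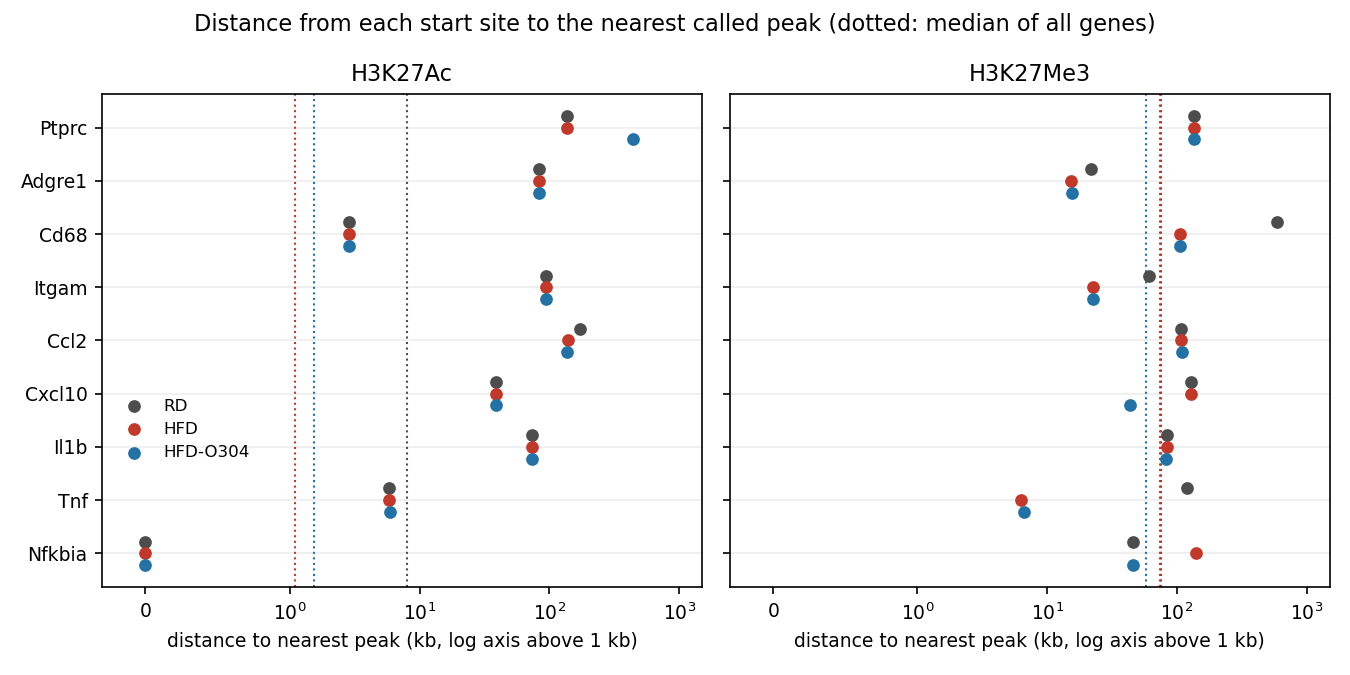
Distance in kb from the start site of each of the 9 genes to the nearest edge of the nearest peak, for H3K27Ac (left) and H3K27Me3 (right), with 1 point per diet and dotted lines for the medians of all protein-coding genes; the axis is logarithmic above 1 kb. Nfkbia lies at 0 for H3K27Ac, Cd68 and Tnf within 10 kb, and the remaining 6 genes beyond 38 kb in every diet.

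Nfkbia (ENSMUSG00000021025) spans chr12:55489410-55492647 on the minus strand and is the only protein-coding gene in its window. Its H3K27Ac peak covered the start site in every diet. In RD the peak spanned chr12:55491670-55493057, 1388 bp, at 3.40 times background. In HFD it spanned chr12:55490650-55493126, 2477 bp, at 3.64 times background. In HFD-O304 it spanned chr12:55490440-55492968, 2529 bp, at 3.48 times background. The 3 peaks shared 1299 bp around the start site, which hold the κB match shown above, and the HFD and HFD-O304 peaks reached farther into the gene body.

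The 3 levels of Nfkbia were close to each other. They rest on an estimated 212, 459 and 398 fragments, with exact 95% Poisson intervals of 2.96 to 3.89 on RD, 3.31 to 3.99 on HFD and 3.15 to 3.84 on HFD-O304. These intervals cover counting error only and overlap one another. The level of HFD over RD differed by 0.10 on the log2 scale, and the median of the 9492 genes with a promoter peak in both lists was 0.07. The log2 ratio of HFD-O304 over HFD was -0.06, where the median of 10321 genes was 0.02. By level, Nfkbia ranked at or above 66.2%, 70.2% and 60.3% of the genes with an H3K27Ac promoter peak in RD, HFD and HFD-O304.

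The width of the Nfkbia peak differed more than its level. It was 1.78 times as wide in HFD as in RD, where the median ratio over genes was 1.12, and 13.6% of genes had a ratio at least as large. In HFD-O304 it was 1.82 times as wide as in RD, with a median of 1.10 and 12.2% of genes at or above it. The widths in HFD-O304 and HFD had a ratio of 1.02. H3K27Ac depth was 83773042 kept fragments on RD, 95218072 on HFD and 84694188 on HFD-O304, and the part of depth in these widths was not tested. No H3K27Me3 peak was called within the window, and the nearest lay 45.9 kb away in RD and HFD-O304 and 140.2 kb away in HFD. The peaks at 45.9 kb were at 2.87 times background in RD and 3.13 in HFD-O304, and the lowest level called in HFD was 3.10.

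**Figure D2:**
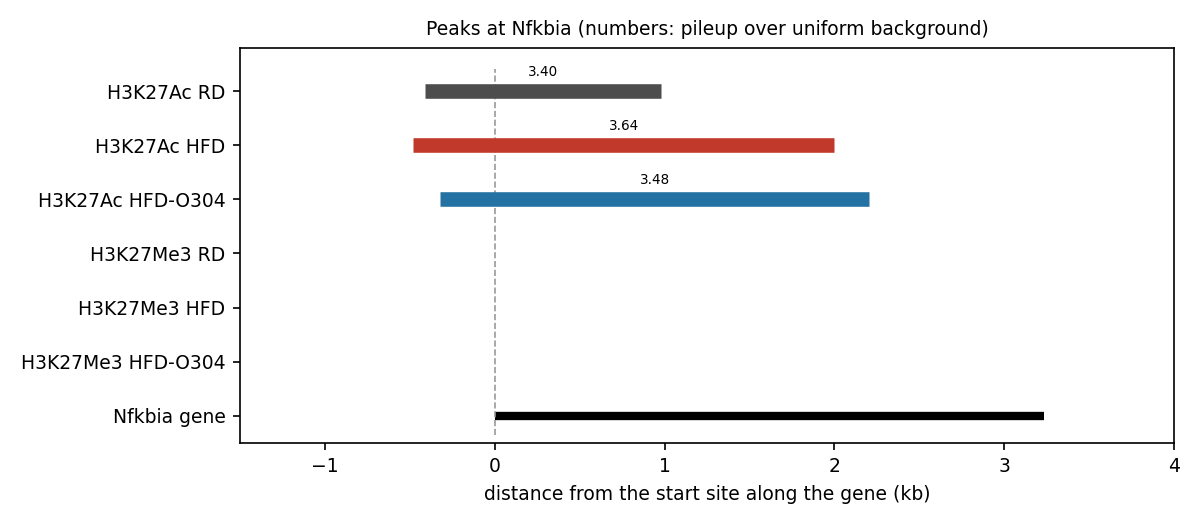
Extent of the H3K27Ac peaks at Nfkbia in kb from the start site along the gene (bars, 1 row per mark and diet), with the level over uniform background above each bar and the gene in black. The peaks of HFD (2477 bp) and HFD-O304 (2529 bp) extend farther into the gene than that of RD (1388 bp), and the H3K27Me3 rows are empty.

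The protein-coding genes whose 3 H3K27Ac promoter levels were nearest to those of Nfkbia, of 9333 with a peak in all 3 diets and by Euclidean distance on the log2 scale, were Cyp7b1, Thap4 and Abhd15. Cyp7b1, an oxysterol hydroxylase, had levels of 3.40, 3.66 and 3.49 times background in RD, HFD and HFD-O304. The distances were 0.01 for Cyp7b1, 0.01 for Thap4 and 0.02 for Abhd15.

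Promoters of other genes of the NF-κB pathway were mostly acetylated. Of 20 such genes, 16 had an H3K27Ac promoter peak on RD, 16 on HFD and 17 on HFD-O304. Over all genes the shares were 44.1%, 49.9% and 49.4%. The highest mean levels among the 20 were those of the NF-κB subunits Rel and Rela and of Chuk, which encodes the kinase IKKα. Rel was at 4.04, 4.37 and 5.00 times background in RD, HFD and HFD-O304. Rela was at 3.78, 4.61 and 4.79. Chuk was at 3.70, 4.04 and 5.18. The 3 genes without a promoter peak of either mark in any list were Ikbkg, Tnfrsf1b and Tlr4, which encode a scaffold of the IκB kinase, a TNF receptor and the lipopolysaccharide receptor, and they were picked out after their values were seen.

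Tnfaip3, Nfkbib and Nfkbie, inhibitors of the pathway also picked out after their values were seen, had H3K27Ac and no H3K27Me3 at the promoter in every diet. This was also the pattern of Nfkbia, of most other pathway genes and of 40.6% of all genes. Tnfaip3, the ubiquitin-editing inhibitor A20, was at 3.56, 3.64 and 3.90 times background in RD, HFD and HFD-O304. Nfkbib, encoding IκBβ, was at 3.20, 2.85 and 3.05, and Nfkbie, encoding IκBε, was at 2.73, 2.55 and 2.88. Across the 15 pathway genes with a peak in all 3 diets, the median log2 ratio of HFD over RD was 0.09, beside 0.07 for all 9333 such genes, and 12 of the 15 (80.0%) had a higher level in HFD, beside 66.9% of all. The only H3K27Me3 promoter peak of the pathway was at Ripk1 in RD, at 2.92 times background, where 6.63% of all genes had one. That level was below the lowest called for H3K27Me3 in HFD (3.10) and in HFD-O304 (2.97).

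**Figure D3:**
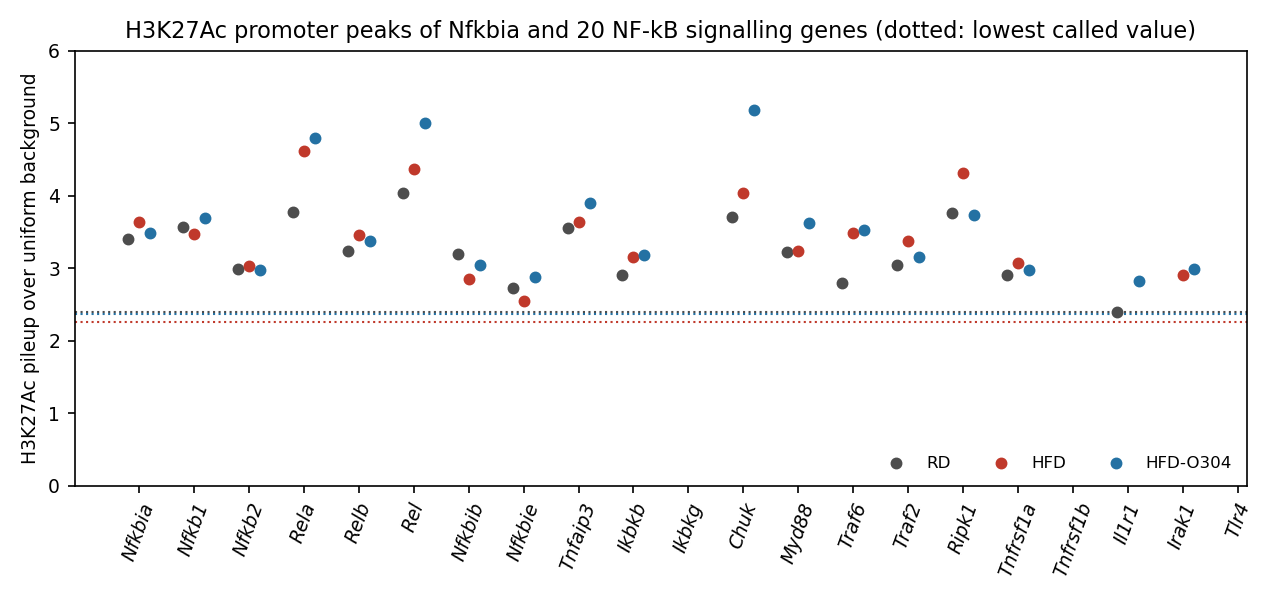
H3K27Ac level at the promoter, as pileup over uniform background, of Nfkbia and 20 NF-κB signalling genes, with 1 point per diet and no point where no peak was called; dotted lines are the lowest level called in each list. Nfkbia lies between 3.40 and 3.64, within the range of the pathway genes, and Ikbkg, Tnfrsf1b and Tlr4 have no point.

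Within the gene windows of the 9 members, 25 peaks were found over the 6 lists, 17 of H3K27Ac and 8 of H3K27Me3. The windows were 41.9 to 164.8 kb long with a median of 43.2 kb, and the median over all genes was 57.4 kb. H3K27Ac peaks lay in the windows of 3 members on RD, 4 on HFD and 4 on HFD-O304, where 63.4%, 69.5% and 68.0% of all genes had one. H3K27Me3 peaks lay in the windows of 1 member on RD, 2 on HFD and 2 on HFD-O304, where 29.9%, 30.6% and 36.4% of all genes had one. Most of these peaks lay nearest to the start site of another gene. Of the 25, 15 overlapped a promoter, and 3 of these overlapped that of a member. The midpoint was nearest to the start site of the member itself for 1 H3K27Ac peak in each diet, that of Nfkbia, and for 0, 2 and 2 H3K27Me3 peaks with RD, HFD and HFD-O304, all in Adgre1.

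Of the 9, 4 members had no peak of either mark in any list within their windows, a state found for 16.3% of all genes. They were Ptprc (ENSMUSG00000026395, chr1:138062861-138175708, minus strand), Ccl2 (ENSMUSG00000035385, chr11:82035571-82037453, plus strand), Cxcl10 (ENSMUSG00000034855, chr5:92346638-92348889, minus strand) and Il1b (ENSMUSG00000027398, chr2:129364570-129371139, minus strand). The Ptprc window spans 152.8 kb without a called peak. Its nearest H3K27Ac peak lay 135.9 kb from the start site on RD, 135.7 kb on HFD and 442.1 kb on HFD-O304. The RD and HFD peaks overlapped a region that also carried an H3K27Me3 peak in all 3 diets, at 4.38, 4.79 and 4.01 times background.

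The chemokine genes and Il1b were likewise far from H3K27Ac peaks. For Cxcl10 the nearest H3K27Ac peak was 38.9 kb from the start on RD, 38.8 kb on HFD and 39.0 kb on HFD-O304, with levels of 2.91, 3.81 and 3.19 times background. For Il1b it was 73.3, 73.3 and 73.2 kb away. For Ccl2 it was 172.9, 137.9 and 137.0 kb away, at levels of 2.91, 2.36 and 2.46 times background. The HFD level there was below 2.40, the lowest called for H3K27Ac in RD. The windows of Ccl2 and Cxcl10 also overlap the related chemokine genes Ccl7 and Cxcl9, and the H3K27Ac peak nearest to Cxcl10 lay past Cxcl9, 16.6 to 16.8 kb outside the window.

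The base composition of the promoters was read beside the peaks. The 300-base promoter of Nfkbia held 15 CpG dinucleotides, Tnf 11, Cxcl10 10, Itgam 6, Ptprc 4, Cd68 4 and Il1b 3. Genes with an H3K27Ac promoter peak in all 3 diets had a median of 23 (quartiles 17 and 31, 7331 genes), and genes with no promoter peak of either mark had a median of 3 (quartiles 1 and 7, 6541 genes). Nfkbia therefore held the most CpG dinucleotides of the 7 members, and fewer than the lower quartile of the acetylated genes. Tnf and Cxcl10, which had no promoter peak, held more than the upper quartile of the genes without one. The TATA motif TATAAA, searched on both strands and present in 13.6% of all promoters, was found in 4 of the 7 promoters. It began 31 bases before the start of Il1b and 29 bases before the start of Tnf on the strand of the gene, and lay on the other strand 187 bases before the start of Ptprc and just after the start of Nfkbia. The exact word GAGGAAGT, a form of the site bound by the myeloid factor PU.1, was found in none of the 7 promoters and in 3.20% of all promoters. Other forms of the site were not searched, so this count does not show that the promoters lack PU.1 sites.

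Cd68 (ENSMUSG00000018774, chr11:69664213-69666153, minus strand) lies in a dense stretch with 7 other protein-coding genes in its window. Peaks of H3K27Ac stood on either side of it in every diet, and each covered the promoter of a neighbour. Mpdu1, needed for glycosylation in the endoplasmic reticulum, had a peak at 2.53 times background on RD, 2.65 on HFD and 2.76 on HFD-O304, whose edge lay 2.9 kb from the Cd68 start. Eif4a1, a translation initiation helicase, had a peak at 4.35, 5.60 and 5.07 times background. Senp3, a SUMO protease, had a peak at 3.03, 3.23 and 3.19 times background.

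Eif4a1 was the highest of the 25 peaks in each diet. Its exact Poisson intervals were 3.85 to 4.91 on RD, 5.12 to 6.11 on HFD and 4.43 to 5.79 on HFD-O304, so the RD and HFD intervals did not overlap, with counting error the only error covered. No H3K27Me3 peak was found in the Cd68 window. The Cd68 window thus held 3 H3K27Ac peaks in every diet, and the promoter of Cd68 itself carried none.

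Adgre1 (ENSMUSG00000004730, chr17:57358691-57483527, plus strand) is a long gene without another protein-coding gene in its window, and it was the only member with H3K27Me3 peaks in its body. Both lay in introns, 15.3 kb and 75.6 kb from the start in HFD, and both were found again in HFD-O304. The near peak was at 3.66 times background in HFD (chr17:57373999-57374622, 624 bp) and 3.58 in HFD-O304 (chr17:57374183-57374625, 443 bp). The far peak was at 3.28 in HFD (chr17:57434256-57434496, 241 bp) and 3.56 in HFD-O304 (chr17:57434101-57434655, 555 bp). The RD list had no peak of either mark in the Adgre1 window, and its nearest H3K27Me3 peak lay 1.9 kb outside it, 21.9 kb upstream of the start, at 3.28 times background (chr17:57336575-57336816). A peak of HFD-O304 overlapped that place at 4.04. The intervals were wide, from 2.08 to 4.93 for the far peak in HFD.

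Beyond the 3′ end of Adgre1 lay further small peaks. H3K27Ac was called at 2.47 times background in HFD (chr17:57489671-57490112) and 2.45 in HFD-O304 (chr17:57489755-57490125), in both lists near the lowest level called. H3K27Me3 was called in HFD-O304 at 3.51 (chr17:57492923-57493162). Their nearest start site was that of Vmn2r120, a vomeronasal receptor gene more than 50 kb away.

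The sequence under the peaks of Adgre1 set them apart from those of Nfkbia and the neighbours of Cd68. The bases shared by the HFD and HFD-O304 peaks are shown because they are repeat-masked throughout in the GRCm38 reference. Both runs are from the plus strand, the far one at chr17:57434256-57434496 and the near one, of which the last 241 bases are given, at chr17:57374382-57374622. Capitals mark CpG dinucleotides.
Adgre1 far intronic peak: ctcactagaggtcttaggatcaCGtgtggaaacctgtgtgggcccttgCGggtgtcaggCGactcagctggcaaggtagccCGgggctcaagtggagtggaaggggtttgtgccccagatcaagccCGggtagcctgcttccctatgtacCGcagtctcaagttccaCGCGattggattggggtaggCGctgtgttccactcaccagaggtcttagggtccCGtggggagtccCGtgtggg
Adgre1 near intronic peak: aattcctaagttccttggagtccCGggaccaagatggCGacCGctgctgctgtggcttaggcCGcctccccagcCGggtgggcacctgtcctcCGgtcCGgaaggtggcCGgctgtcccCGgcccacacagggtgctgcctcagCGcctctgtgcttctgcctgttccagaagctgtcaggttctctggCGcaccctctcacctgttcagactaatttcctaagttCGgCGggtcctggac
The far run holds 11 and the near run 13 CpG dinucleotides.

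These sequences are not unique in the genome. Of 6 words of 50 bases taken every 100 bases from the near region, 0 occurred once in the reference chromosomes on either strand, and their median was 1829.5 copies. Of the 6 words from the far region, 0 occurred once, with a median of 647 copies. By contrast, all 27 such words from the region of the Nfkbia peaks and all 20 from that of Eif4a1 occurred once. Of the 8 peaks in the windows of Adgre1 and Itgam, 7 were repeat-masked in full and the last, the H3K27Me3 peak of HFD-O304 beyond the 3′ end, over 94.6% of its bases. Among all peaks, masking in full was found for 53.7% (RD), 51.0% (HFD) and 54.7% (HFD-O304) of H3K27Me3 peaks and for 11.8%, 11.5% and 9.09% of H3K27Ac peaks. Fragments from such sequence cannot all be placed at a single copy, and the part of this in the Adgre1 peaks was not tested.

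Itgam (ENSMUSG00000030786, chr7:128062640-128118491, plus strand) had a peak within its window in 1 of the 6 lists. It was an H3K27Me3 peak in RD at 2.83 times background (chr7:128123929-128124660, 732 bp), past the 3′ end of Itgam. Its midpoint lay in an intron of the protein-coding gene Gm49368, 5.3 kb upstream of Itgax. Itgax encodes CD11c, a marker of dendritic cells and some macrophages. The level of the RD peak was below 3.10, the lowest called for H3K27Me3 in HFD, so a peak of this height would not have been called there. Closer to the Itgam start, H3K27Me3 peaks of HFD (3.79) and HFD-O304 (3.57) lay 22.5 kb upstream, 2.5 kb outside the window, so H3K27Me3 near Itgam was not particular to RD. The region of the RD peak was repeat-masked in full, and 0 of 7 of its 50-base words occurred once. No H3K27Ac peak lay within 90 kb of the Itgam start in any diet.

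**Figure D4:**
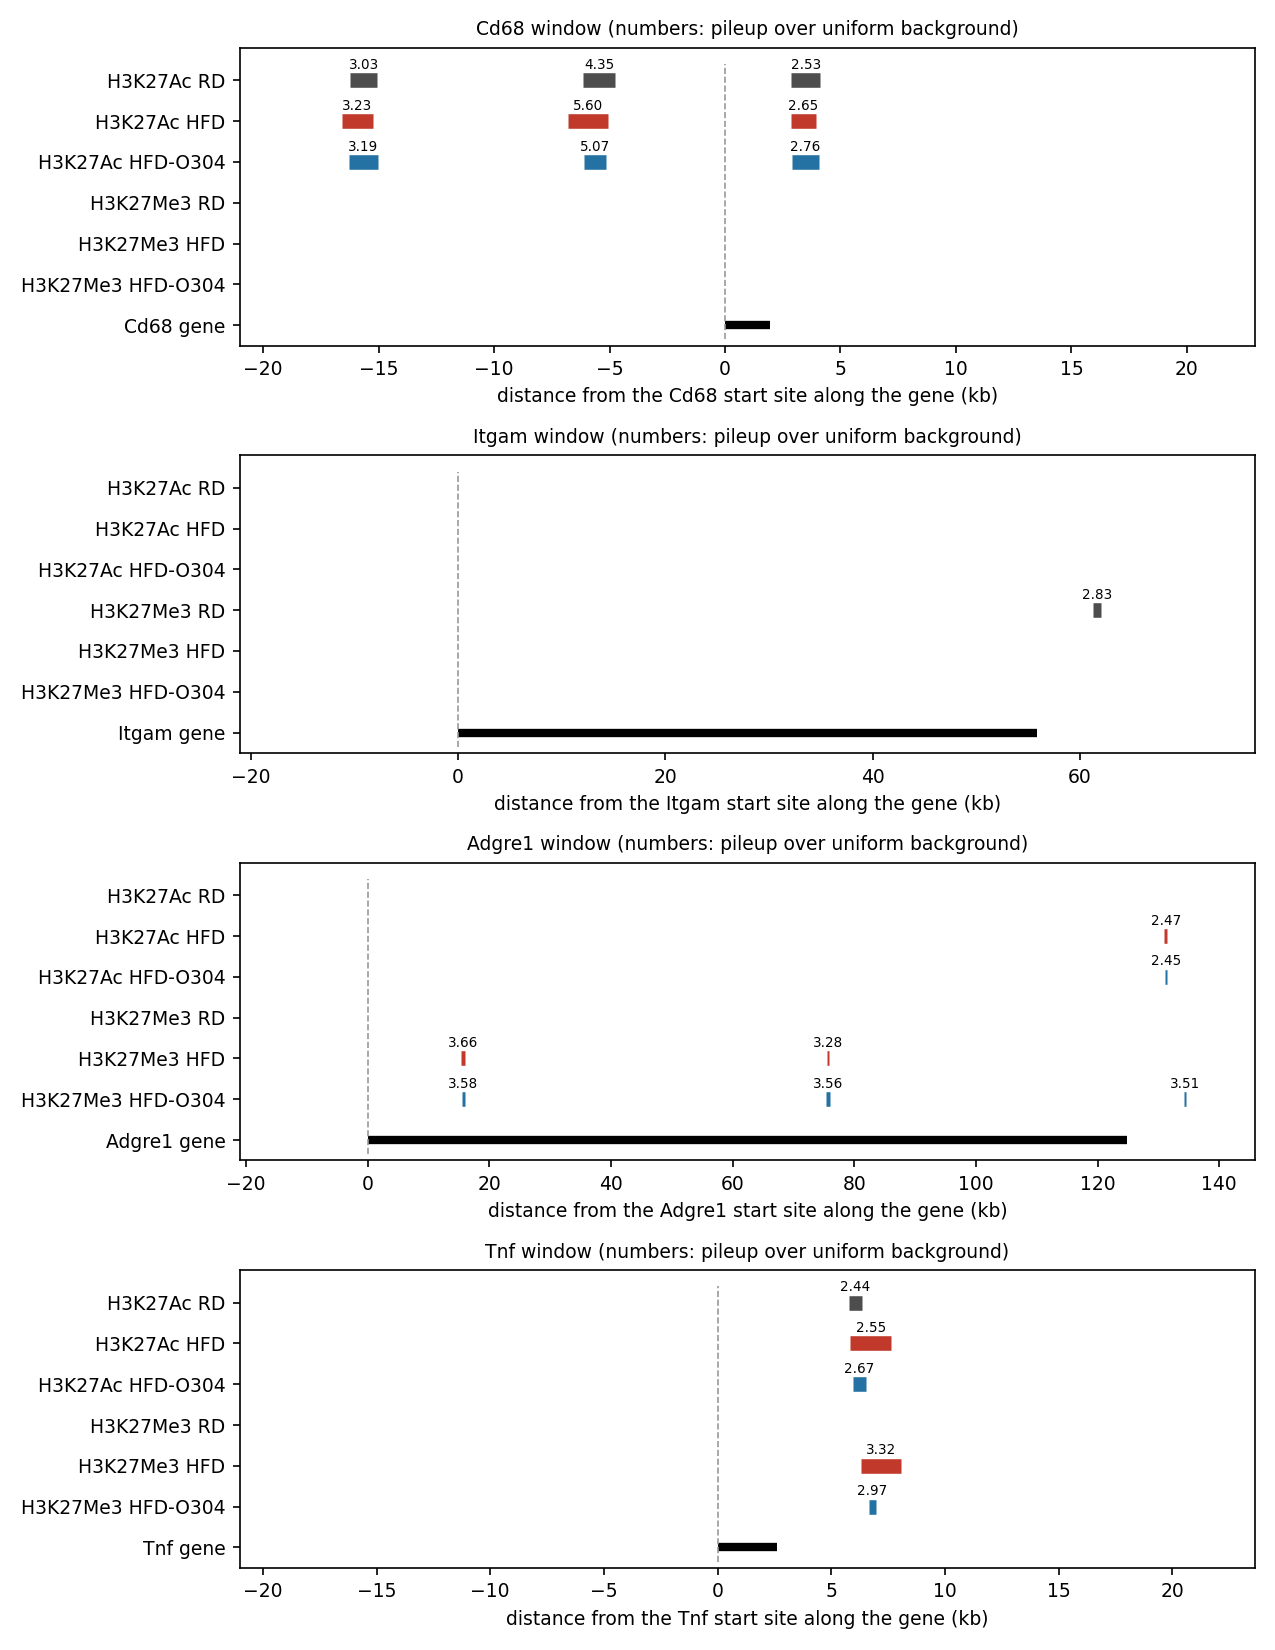
Peaks in the windows of Cd68, Itgam, Adgre1 and Tnf in kb from the start site along the gene (bars, 1 row per mark and diet, level over uniform background above each bar), with the member gene in black. The H3K27Ac peaks around Cd68 recur in the 3 diets on either side of the gene, the H3K27Me3 peaks within Adgre1 appear in HFD and HFD-O304, Itgam has 1 peak in RD, and the peaks of the Tnf window lie 5.8 kb or more past the start.

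Tnf (ENSMUSG00000024401, chr17:35199381-35202007, minus strand) sits between Lta and Ltb in a cluster of cytokine genes, and all 5 peaks in its window lay at Ltb, which encodes lymphotoxin beta. H3K27Ac was called at 2.44 times background in RD (chr17:35195672-35196227), 2.55 in HFD (chr17:35194365-35196179) and 2.67 in HFD-O304 (chr17:35195482-35196060). The widths were 556, 1815 and 579 bp, so the HFD peak was the widest and reached the Ltb promoter. All 3 levels were near the lowest called, and their Poisson intervals overlapped, at 1.87 to 3.13, 2.23 to 2.90 and 2.08 to 3.38.

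H3K27Me3 was called over Ltb in HFD at 3.32 times background (chr17:35193956-35195692, 1737 bp) and in HFD-O304 at 2.97 (chr17:35195036-35195347, 312 bp), and not in RD, where the nearest H3K27Me3 peak lay 118.6 kb from the Tnf start. The HFD-O304 level equals the lowest called in its list. In HFD the 2 marks shared 1328 bp of Ltb, and in HFD-O304 they did not overlap. A 200-base stretch of an Ltb intron that lay under both marks in HFD is shown for comparison with the repeats of Adgre1, since none of it is repeat-masked. It is given from the plus strand at chr17:35194684-35194883, and capitals mark its 4 CpG dinucleotides.
Ltb intron: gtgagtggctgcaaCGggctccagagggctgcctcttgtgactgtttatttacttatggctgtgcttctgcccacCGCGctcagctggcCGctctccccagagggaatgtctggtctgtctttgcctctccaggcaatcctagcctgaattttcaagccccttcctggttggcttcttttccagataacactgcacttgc
Of 23 words of 50 bases from the Ltb region, 22 occurred once in the reference. Lists from merged islets do not show whether both marks lay on the same cells or on different ones.

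Between diets, 3 of the 9 members differed in the presence of a window peak of either mark. These were Adgre1 and Itgam, with the repeat-masked peaks described above, and Tnf, with the H3K27Me3 peaks over Ltb. The H3K27Me3 differences of Adgre1 and Itgam depend on the edge of the window. With 50 kb on either side in place of 20 kb, both genes had H3K27Me3 in all 3 diets, and the difference of Tnf and the H3K27Ac difference of Adgre1 stayed. That H3K27Ac difference ended with flanks of 5 kb, with a −log10 q of at least 5, and without repeat-masked peaks. For H3K27Ac, 1 of 9 members, Adgre1, had a window peak in HFD and none in RD, where 7.35% of all genes did, and 0 had the reverse, where 1.19% did. No member had an H3K27Ac window peak in HFD and none in HFD-O304 (3.82% of all genes) or the reverse (2.36%). For H3K27Me3, Adgre1 and Tnf had a window peak in HFD and none in RD (6.81% of all genes), and Itgam had the reverse (6.17%). No member differed between HFD and HFD-O304 in the presence of H3K27Me3, where 3.43% of all genes had a window peak in HFD alone and 9.24% in HFD-O304 alone. H3K27Me3 depth was 74870300 kept fragments on RD, 54166902 on HFD and 57324419 on HFD-O304, and the part of depth in these differences was not tested.

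Other macrophage and cytokine genes were counted in the same way. Of 19 other macrophage genes, among them Csf1r, Spi1 and Lyz2, 15 had no promoter peak of either mark in any list. Over all genes, 41.0% had no such peak, and 44.1%, 49.9% and 49.4% had an H3K27Ac promoter peak on RD, HFD and HFD-O304. H3K27Ac promoter peaks were found for 1 of the 19 macrophage genes on RD, 2 on HFD and 4 on HFD-O304. The 1 with a peak in every diet was Fcgr3, an Fc receptor gene, at 4.41, 4.88 and 4.68 times background, and H3K27Me3 covered the same promoter at 12.1, 17.8 and 18.3. The H3K27Ac peak there was 21851, 21839 and 21847 bp wide in RD, HFD and HFD-O304. The median width of all H3K27Ac peaks in those lists was 784, 849 and 862 bp. Peaks were called without a control or a local background, and the part of repeats or copy number in this region was not tested. The genes called in HFD or HFD-O304 alone, picked out after their values were seen, were C1qa, a complement subunit, at 2.46 in HFD and 2.54 in HFD-O304, and Mertk and Fcer1g at 2.53 and 2.50 in HFD-O304. All of these were near the lowest level called. Mertk also carried H3K27Me3 in every diet, at 2.88, 3.68 and 4.08.

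Of 19 other chemokine and cytokine genes, 14 had no promoter peak of either mark in any list, beside 41.0% of all genes. On RD, HFD and HFD-O304, 44.1%, 49.9% and 49.4% of all genes had an H3K27Ac promoter peak, and 6.63%, 8.46% and 8.88% an H3K27Me3 one. Of the 19, H3K27Ac promoter peaks were found for 1 on RD, 4 on HFD and 2 on HFD-O304. H3K27Me3 promoter peaks were found for 1, 3 and 3. Csf1, the growth factor of macrophages, was the gene with H3K27Ac in every diet, at 3.19, 2.77 and 3.12 times background. The others, picked out after their values were seen, included the neutrophil chemokines Cxcl1 and Cxcl2. Cxcl2 carried H3K27Me3 in all 3 diets, at 2.98, 4.37 and 3.20. Cxcl1 carried both marks in HFD, H3K27Ac at 2.57 and H3K27Me3 at 3.71, and H3K27Me3 alone in HFD-O304 at 3.31.

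Among beta cell genes, included to check the labelled tissue, 8 of 12 had an H3K27Ac promoter peak on RD, 10 on HFD and 9 on HFD-O304. Over all genes the shares were 44.1%, 49.9% and 49.4%. Of the 12, Nkx6-1, Mafa and Pdx1, transcription factors of beta cells, had the highest mean levels, with Nkx6-1 at 4.06, 4.20 and 4.36 times background. Nkx6-1 also carried H3K27Me3 in HFD-O304, at 3.02. Ins1, picked out after its values were seen, had H3K27Ac at 2.86 on RD and 3.12 on HFD and no peak on HFD-O304. Ins2 and Iapp, defining genes of beta cells, were also picked out after their values were seen. Neither had a peak of either mark within 1 kb of the start site used, the 5′ end of the annotated gene, in any list. Other annotated start sites were tried for the 9 members only, so a peak at another start of Ins2 or Iapp would not have been counted. A start site without a called peak was thus also seen at genes that define the tissue. Of the 4 leukocyte and macrophage markers among the members, 0 had a promoter peak, and of 10 lymphocyte genes, 0 had one of either mark in any list. Over all genes, 41.0% had none.

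**Figure D5:**
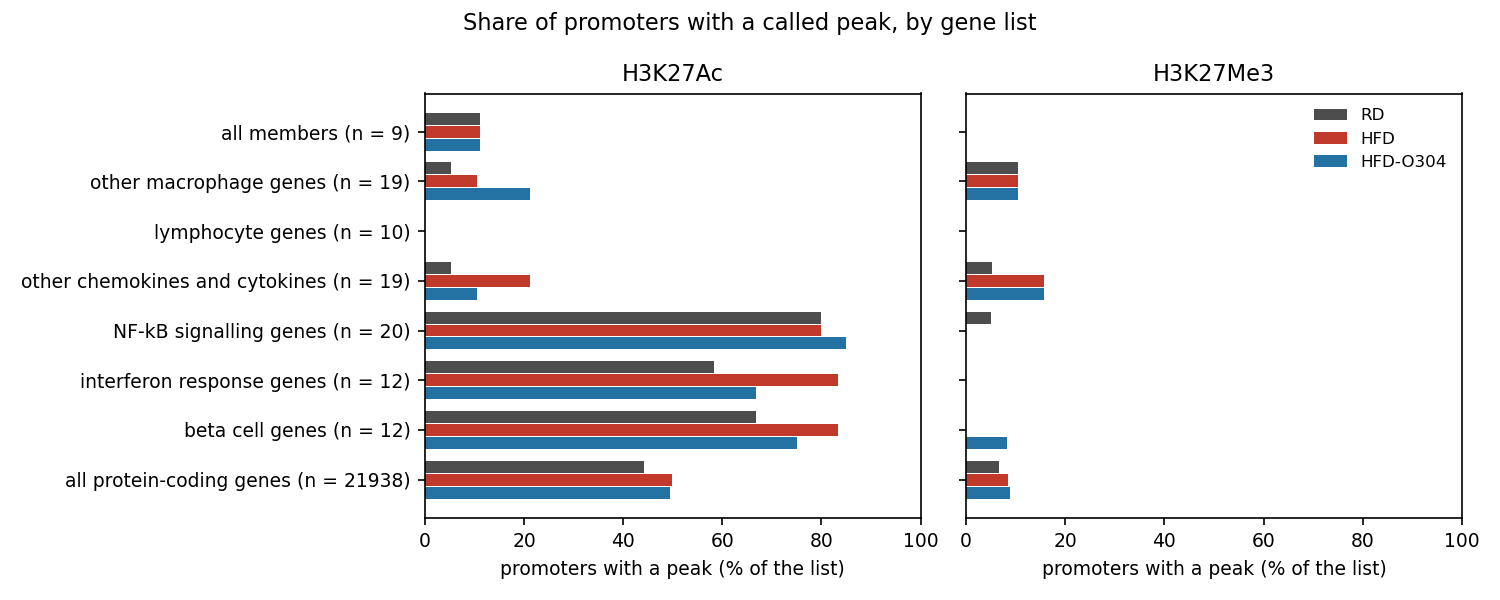
Percentage of promoters with a called H3K27Ac (left) or H3K27Me3 (right) peak for the 9 members, 6 other gene lists and all protein-coding genes, with 1 bar per diet. Members, other macrophage genes, lymphocyte genes and other chemokines and cytokines lie between 0 and 21.1% for H3K27Ac, beside 44.1% to 49.9% of all genes, and NF-κB signalling genes between 80.0% and 85.0%.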

How the data were processed

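The authors aligned paired-end ChIP-seq reads from islets to GRCm38 with bowtie2 and merged the 2 replicates of each mark and diet. Broad peaks were called with MACS 2.1.2. Per the file headers, the q-value cutoff was 0.01, the genome size was set to 1.87e9, duplicates were reduced to 1 fragment at each position, and neither a control nor a local background was used, so the 3 input samples did not enter the 6 lists. The deposited pileup is coverage, a signal counted as fragments over each base. The deposited −log10 q-value is relative to the uniform background, and the deposited fold enrichment is the ratio of pileup plus 1 to background plus 1.

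Kept fragments per list numbered 54166902 to 95218072. Duplicates made up 17.2% to 18.4% of H3K27Ac and 45.7% to 56.9% of H3K27Me3 fragments. Background was kept fragments times fragment size over genome size. Counting intervals are exact Poisson (95%) on pileup times width over fragment size, cover counting error only and do not replace replicates. Start sites were the 5′ ends of GENCODE M21 genes, overlap was at least 1 bp, and the fragments behind a peak were not observed directly. Repeat masking was that of the RefSeq GRCm38.p6 sequence, and promoters came from RefSeq.

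Python 3 with pandas, numpy, scipy, pysam and matplotlib was used, and the overlap functions were tested on simulated peaks. All 9 genes were named. From other lists, up to 3 genes with the highest mean H3K27Ac promoter level among those present in all 3 diets were named, and further names are stated as picked after their values were seen. The members and lists were chosen with earlier results of these data known. Of the listed genes, 3 names were not matched. No test was run. The alternatives tried were a stricter q-value, a common calling cutoff, other windows and start sites, a larger overlap, removal of repeats, nearest gene and the deposited fold.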

Additional observations from a re-analysis of the deposited data

How the results depend on the processing

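No paired analysis was possible because each list joins both replicates, and no replicate could be left out for the same reason. The promoter counts (1 member for H3K27Ac and 0 for H3K27Me3 in each diet) were the same under all 42 alternative values. Counts of peaks in the windows (H3K27Ac 5, 6 and 6 and H3K27Me3 1, 3 and 4 in RD, HFD and HFD-O304) moved with the setting. With a −log10 q of at least 5, H3K27Ac gave 3 in each diet and H3K27Me3 gave 0 in each. With flanks of 50 kb, H3K27Ac gave 13, 16 and 15 in RD, HFD and HFD-O304, and H3K27Me3 gave 3, 4 and 8. At this width Adgre1 and Itgam had H3K27Me3 in every diet, which ends their H3K27Me3 differences between diets. The H3K27Ac difference of Adgre1 stayed at 50 kb. It ended with flanks of 5 kb, with a −log10 q of at least 5, and without peaks masked as repeat. Its peaks had a −log10 q of 3.10 in HFD and 2.48 in HFD-O304 and were repeat-masked in full. At the same width Nfkbia had H3K27Me3 in RD and HFD-O304 and not in HFD, and Cxcl10 had it in HFD-O304 alone. These levels were below or near 3.10, the lowest called in HFD. They were 2.87 in RD and 3.13 in HFD-O304 for Nfkbia, and 3.13 for Cxcl10. With flanks of 5 kb, H3K27Ac gave 4, 3 and 3 in RD, HFD and HFD-O304, and H3K27Me3 gave 0, 3 and 3. Counting only peaks nearest to the member start gave 1 for H3K27Ac in each diet, and for H3K27Me3 0, 2 and 2 in RD, HFD and HFD-O304. Without peaks masked as repeat over at least 50% of their bases, H3K27Ac gave 5 in each diet and H3K27Me3 gave 0, 1 and 1. At the common cutoff of 3.10 for H3K27Me3, RD gave 0, and HFD and HFD-O304 gave 3 each. For Nfkbia, the deposited fold was 3.20, 3.44 and 3.27 in RD, HFD and HFD-O304, and a background recovered from that fold, an alternative added after the data were seen, gave levels of 3.38, 3.62 and 3.45, all within the counting intervals. The lowest levels called were 2.26 to 3.10 times background, below which no list shows a peak.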

Other observations

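Interferon response genes, which many cell types use in defence against viruses, were counted at their promoters in the same way. Of 12, 7 had an H3K27Ac promoter peak on RD, 10 on HFD and 8 on HFD-O304, where 44.1%, 49.9% and 49.4% of all genes had one. None of the 12 had H3K27Me3 in any diet, where 6.63%, 8.46% and 8.88% of all genes had such a promoter peak. Ifngr1, a chain of the interferon gamma receptor, was at 3.78, 3.66 and 3.82 times background in RD, HFD and HFD-O304. The transcription factor Irf1 was at 3.23, 3.30 and 3.02. Over the 6 with a peak in all 3 diets, the median log2 ratio of HFD over RD was -0.04, beside 0.07 for all genes. No test was possible between diets.

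Among genes of other cell types that an islet preparation can hold, endothelial genes carried H3K27Me3 at 4 of 10 promoters in each diet. They carried H3K27Ac at 2 on RD, 0 on HFD and 1 on HFD-O304. Over all genes, 6.63%, 8.46% and 8.88% had H3K27Me3 and 44.1%, 49.9% and 49.4% had H3K27Ac at the promoter in RD, HFD and HFD-O304. Of 9 acinar genes, 1 had an H3K27Ac promoter peak in each diet, Bhlha15, at 2.72, 2.95 and 2.91 times background. H3K27Me3 was found at 1, 0 and 2 acinar promoters in RD, HFD and HFD-O304. All 10 lymphocyte genes were without a promoter peak of either mark, beside 41.0% of all genes.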
